A study of Homo sapiens with 6 samples.

Results

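Transcripts of 8 enzymes of the pentose phosphate pathway were examined in PC-3, a cell line from human prostate cancer, among 18780 gene symbols with values. The members were taken by symbol, as enzymes of this pathway. They were PGLS and PGD of the oxidative branch, RPIA, RPE, TKT and TALDO1 of the non-oxidative branch, and PRPS1 and PRPS2, which turn the ribose product into phosphoribosyl pyrophosphate (PRPP). Cells were given TGH (trans-Gnetin H, made of linked units of resveratrol, a plant polyphenol) at 2.5 µM for 24 h, in 3 libraries, or the solvent DMSO for 24 h, in 3 libraries. Both groups were grown in DMEM/F12 with fetal bovine serum, and PC-3 is the only line analysed here. By its title the study asks about depriving advanced prostate cancer cells of glucose with this compound. The labels do not say whether the libraries of a group came from separate cultures, so the p-values measure the spread between these libraries, which may be technical.

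The pentose phosphate pathway branches off glycolysis at glucose 6-phosphate. Its oxidative branch makes NADPH, which serves biosynthesis and keeps glutathione and thioredoxin reduced, and it ends in ribulose 5-phosphate. Its non-oxidative branch is reversible and exchanges pentose phosphates with fructose 6-phosphate and glyceraldehyde 3-phosphate of glycolysis, so ribose can be drawn from glycolysis or returned to it. PRPP synthetases activate ribose 5-phosphate for the synthesis of nucleotides and NAD, a demand that is high in dividing cells.

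Values are TPM, a unit of transcript abundance scaled by transcript length and library total, or log2(TPM + 1) as deposited. A TPM is a share of a library's RNA, so fewer cells with a transcript and less of it per cell cannot be told apart. Read totals cannot be had from TPM, and depth is therefore unknown. Genes listed at exactly 0 numbered 1342 to 1498 in TGH libraries, against 3074, 3185 and 1530 in DMSO replicates 1 to 3, so DMSO replicates 1 and 2 stood apart. The 4 epithelial markers were expressed, with a summed level of 1060 to 1068 TPM in TGH and 1398 to 1421 TPM in DMSO. Of these, 3 were called lower, KRT8, KRT18 and EPCAM, and CDH1 was not called. CDH1 averaged 51.9 TPM in TGH and 49.6 TPM in DMSO, with every TGH library above every DMSO library. Of 5 fibroblast markers 1 was kept by the filter of a mean of at least 1 TPM, of 4 immune and 3 endothelial markers 0. Summed levels in TGH and in DMSO were 3.25 to 3.77 and 3.58 to 4.78 TPM for fibroblast, 0.283 to 0.373 and 0.147 to 0.362 TPM for immune, and 0.142 to 0.240 and 0.207 to 0.313 TPM for endothelial markers. No marker analysed was at 0 in all 6 libraries. The part of these markers in the results was not tested.

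With TGH, transcripts of 6 of the 8 enzymes fell, PGLS rose and TALDO1 was not called. TKT, PRPS1 and PRPS2 fell most, with a mean TPM in TGH of 0.723, 0.748 and 0.741 times that in DMSO, while PGLS was at 1.35 times. The oxidative branch was split, with its lactonase PGLS up and its dehydrogenase PGD down, and the non-oxidative branch had 3 members lower and 0 higher of 4. All 8 members passed the filter on low values, and none was listed at 0 in any library. Of all 12018 genes kept, 26.3% were called lower and 28.9% higher, 55.2% in all (limma, Benjamini-Hochberg adjusted p under 0.05), and the members' counts are to be read against these shares. The groups did not overlap in any of the 8 members, with TGH below DMSO in 7. Over all kept genes the groups did not overlap in 64.4%, with TGH below in 30.8% and above in 33.6%. The median log2 difference was -0.24 over the members and 0.02 over all kept genes. With DMSO replicate 3 as the only control, 5 members were called lower and 1 higher, with the lone control assumed to vary like the TGH libraries.

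**Figure D1:**
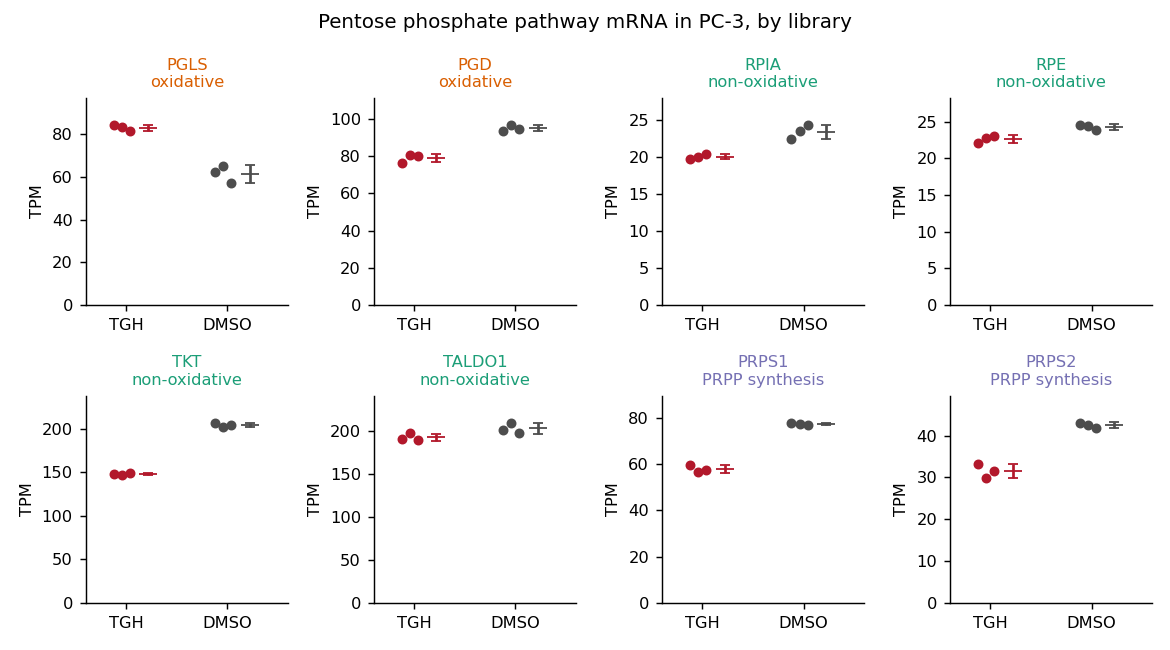
Abundance of each member in TPM (vertical axes start at 0 and differ between panels) in the 3 TGH and the 3 DMSO libraries; dots are libraries and bars are the mean ± SD of a group. TGH libraries sit below DMSO libraries in 7 panels and above them for PGLS, and in the TALDO1 panel the groups nearly touch.

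The bases upstream of the annotated start of 5 members are shown because PGLS and PGD, neighbours in the pathway, moved in opposite directions, and because TKT, PRPS1 and PRPS2 fell by like amounts. They are the 250 bases before the start in RefSeq (build GRCh38.p14, not the hg19 of the deposited values), 5′ to 3′ on the gene's strand. Capitals mark a match to 1 of 4 motifs searched on both strands.
PGLS (chr19:17511399-17511648, plus strand): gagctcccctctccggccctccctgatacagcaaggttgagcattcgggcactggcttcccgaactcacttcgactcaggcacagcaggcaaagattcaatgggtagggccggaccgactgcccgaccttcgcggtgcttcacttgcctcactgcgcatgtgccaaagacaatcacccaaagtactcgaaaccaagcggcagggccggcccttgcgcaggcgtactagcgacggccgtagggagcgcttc
PGD (chr1:10398814-10399063, plus strand): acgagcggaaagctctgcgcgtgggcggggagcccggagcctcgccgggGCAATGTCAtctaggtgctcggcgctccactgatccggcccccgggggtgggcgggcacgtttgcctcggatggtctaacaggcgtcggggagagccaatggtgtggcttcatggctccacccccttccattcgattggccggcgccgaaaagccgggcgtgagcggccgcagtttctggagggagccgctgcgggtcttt
TKT (chr3:53256023-53256272, minus strand): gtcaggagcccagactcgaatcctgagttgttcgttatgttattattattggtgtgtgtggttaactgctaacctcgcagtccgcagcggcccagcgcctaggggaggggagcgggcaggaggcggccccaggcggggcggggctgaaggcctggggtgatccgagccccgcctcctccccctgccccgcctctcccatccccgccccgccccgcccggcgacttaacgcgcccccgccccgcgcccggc
PRPS1 (chrX:107628260-107628509, plus strand): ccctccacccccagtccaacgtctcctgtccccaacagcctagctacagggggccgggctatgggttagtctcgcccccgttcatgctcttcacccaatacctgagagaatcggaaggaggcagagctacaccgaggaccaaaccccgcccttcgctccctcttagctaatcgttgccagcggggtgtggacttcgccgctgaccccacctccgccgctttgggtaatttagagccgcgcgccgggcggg
PRPS2 (chrX:12791162-12791411, plus strand): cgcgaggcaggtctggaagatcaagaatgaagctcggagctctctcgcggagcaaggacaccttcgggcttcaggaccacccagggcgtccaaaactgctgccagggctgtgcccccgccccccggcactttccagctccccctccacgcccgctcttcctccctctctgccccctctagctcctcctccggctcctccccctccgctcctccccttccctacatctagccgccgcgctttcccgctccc
All 8 members had an entry in the RefSeq table. The motifs were the core of the NRF2 antioxidant response element (TGACNNNGC), the E-box (CACGTG), the core of the sterol regulatory element (TCACNCCAC) and the core of the CHOP-ATF4 composite element (TGATGNAA). The NRF2 core was found in 2 of the 8 windows and in 10.9% of all 35116 windows of this length. In PGD it read GCAATGTCA, on the opposite strand, and in RPE TGACAGCGC, and no match overlapped another. The E-box, the sterol element core and the composite core were each in 0 of the 8 windows, and in 6.34%, 0.883% and 3.14% of all windows. A match describes letters only, and a missing match says only that these letters are not in this window. The GC content of the 8 windows reached from 60.0% in RPIA to 78.4% in TALDO1, with a median of 58.0% over all windows.

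In the oxidative branch, PGLS hydrolyses 6-phosphogluconolactone to 6-phosphogluconate. It had 84.2, 83.1 and 81.4 TPM in TGH replicates 1 to 3, against 62.4, 64.8 and 56.9 TPM in DMSO replicates 1 to 3. Every TGH library was above every DMSO library, and DMSO replicate 3 was the lowest. The log2 difference was 0.43 (SE 0.048, limma adjusted p = 0.000437), and 10.6% of kept genes had a difference at least as high. PGLS is overlapped by 1 annotated gene, the divergent transcript PGLS-DT, which was not analysed here. Whether reads were counted by strand is not given in the sources used here, so reads of the pair may not be told apart.

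PGD oxidises 6-phosphogluconate to ribulose 5-phosphate and makes NADPH. It had 76.5, 80.6 and 79.8 TPM in TGH replicates 1 to 3, against 93.6, 96.6 and 94.5 TPM in DMSO replicates 1 to 3. All TGH values lay below all DMSO values. The log2 difference was -0.26 (SE 0.028, limma adjusted p = 0.000356). The order of the 2 transcripts differed between the groups: PGLS averaged 82.9 ± 1.43 TPM and PGD 78.9 ± 2.20 TPM in TGH, and PGLS averaged 61.4 ± 4.06 TPM and PGD 94.9 ± 1.56 TPM in DMSO (SD, n = 3 each). In each group the 2 transcripts did not overlap. Within a library, the log2 value of PGD minus that of PGLS was -0.14, -0.044 and -0.028 in TGH replicates 1 to 3, against 0.58, 0.57 and 0.72 in DMSO replicates 1 to 3. This is a shift of -0.69 (exact permutation test, two-sided, p = 0.1, the smallest that 3 against 3 libraries allow, and 0.133 adjusted over 4 pairs).

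H6PD, an enzyme of the ER lumen that starts a separate oxidative route there and supplies NADPH to that compartment, was measured as a relative. It had 3.89, 3.80 and 3.79 TPM in TGH replicates 1 to 3, against 2.01, 1.77 and 1.85 TPM in DMSO replicates 1 to 3. The groups were far apart for a transcript of low level. Its log2 difference was 0.75 (SE 0.055, limma adjusted p = 7.61e-05), and against DMSO replicate 3 alone 0.76 (adjusted p = 0.000992).

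In the non-oxidative branch, TKT and TALDO1 were the most abundant of the 8 members, and together they made up 88.9% of the branch's TPM in TGH and 89.5% in DMSO. TKT, transketolase, moves 2-carbon units between sugar phosphates with thiamine pyrophosphate as its cofactor. It had 148, 147 and 149 TPM in TGH replicates 1 to 3, against 207, 202 and 205 TPM in DMSO replicates 1 to 3. The gap between the groups was 0.43 on the log2 scale, the widest of the 8 members. The difference was -0.47 (SE 0.019, limma adjusted p = 8.23e-06), and 4.27% of kept genes had a difference at least as low. The related genes TKTL1 and TKTL2 did not pass the filter and were at most 0.0222 and 0.0104 TPM in any library.

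TALDO1, transaldolase, moves 3-carbon units between sugar phosphates. It had 190.4, 197 and 190.05 TPM in TGH replicates 1 to 3, against 201, 209.9 and 198 TPM in DMSO replicates 1 to 3. The highest TGH library and the lowest DMSO library differed by only 0.0036 on the log2 scale. The difference was -0.076 (95% interval -0.14 to -0.0075, limma adjusted p = 0.0601) and was not called. It was called at -0.11 under median scaling (adjusted p = 0.0198) and at -0.094 without DMSO replicate 3 (adjusted p = 0.0442). Neither TKT nor TALDO1 was clearly the higher in DMSO, where TKT averaged 205 ± 2.68 TPM and TALDO1 203 ± 6.12 TPM, whereas in TGH TKT averaged 148 ± 1.29 TPM and TALDO1 193 ± 4.17 TPM (SD, n = 3 each). The log2 value of TKT minus that of TALDO1 averaged -0.38 in TGH and 0.012 in DMSO, a shift of -0.39 (exact permutation test, two-sided, p = 0.1 and 0.133 adjusted over 4 pairs).

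The remaining non-oxidative enzymes start from ribulose 5-phosphate and were less abundant. RPIA isomerises it to ribose 5-phosphate. RPIA had 19.7, 20.0 and 20.3 TPM in TGH replicates 1 to 3, against 22.3, 23.4 and 24.3 TPM in DMSO replicates 1 to 3. TGH lay below DMSO throughout, with a gap of 0.13 between the groups on the log2 scale. The difference of the means was -0.21 (SE 0.038, limma adjusted p = 0.00333). RPE, the epimerase, converts it to xylulose 5-phosphate. RPE had 22.1, 22.7 and 23.1 TPM in TGH replicates 1 to 3, against 24.5, 24.5 and 23.9 TPM in DMSO replicates 1 to 3. The difference of -0.10 (SE 0.031, limma adjusted p = 0.0303) was small, and the call was lost without any 1 of TGH replicates 1, 2 and 3 or DMSO replicates 1 and 2 (adjusted p from 0.0538 to 0.1). RPE and RPIA overlapped in DMSO, while RPE was above RPIA in every TGH library. The shift of RPIA minus RPE was -0.11 (exact permutation test, two-sided, p = 0.1 and 0.133 adjusted over 4 pairs). RPE is the member with the most annotated pseudogenes, 6, and it overlaps KANSL1L, while RPIA overlaps 1 uncharacterised locus. PGD and PRPS1 have 2 pseudogenes each and RPIA and TALDO1 1 each. These pseudogenes were not analysed here, and reads shared with such copies would make small differences uncertain.

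PRPS1 and PRPS2 are closely related isoforms of PRPP synthetase, which transfers pyrophosphate from ATP to ribose 5-phosphate. PRPS1 had 59.7, 56.5 and 57.2 TPM in TGH replicates 1 to 3, against 77.8, 77.1 and 77.0 TPM in DMSO replicates 1 to 3. PRPS2 had 33.2, 29.8 and 31.5 TPM in TGH replicates 1 to 3, against 43.1, 42.6 and 41.9 TPM in DMSO replicates 1 to 3. For both isoforms the groups were well apart, and TGH replicate 2 was the lowest library. PRPS1 fell by 0.41 (SE 0.027, limma adjusted p = 4.77e-05) and PRPS2 by 0.42 (SE 0.042, limma adjusted p = 0.000245). PRPS1 made up 64.7% ± 0.640 of the TPM of both isoforms in TGH and 64.5% ± 0.231 in DMSO (SD, n = 3 each). PRPS1 minus PRPS2 shifted by 0.0092 on the log2 scale (exact permutation test, two-sided, p = 0.9, also 0.9 adjusted over 4 pairs). The direction of this shift changed with the settings, from -0.013 to 0.023 over 14 alternatives. PRPS1L1, a close relative known from testis, was at 0 in 5 libraries and at 0.012 TPM in the other. PRPSAP1 and PRPSAP2, which bind the synthetases as associated proteins, had differences of -0.15 and -0.23 (limma adjusted p = 0.0178 and 0.0194). Neither was called against DMSO replicate 3 alone (-0.10 and -0.15, adjusted p = 0.0749 and 0.138). PRPSAP1 was also not called without TGH replicate 1 or 2 (adjusted p = 0.0564 and 0.0613), nor PRPSAP2 without TGH replicate 3 (adjusted p = 0.0629).

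**Figure D2:**
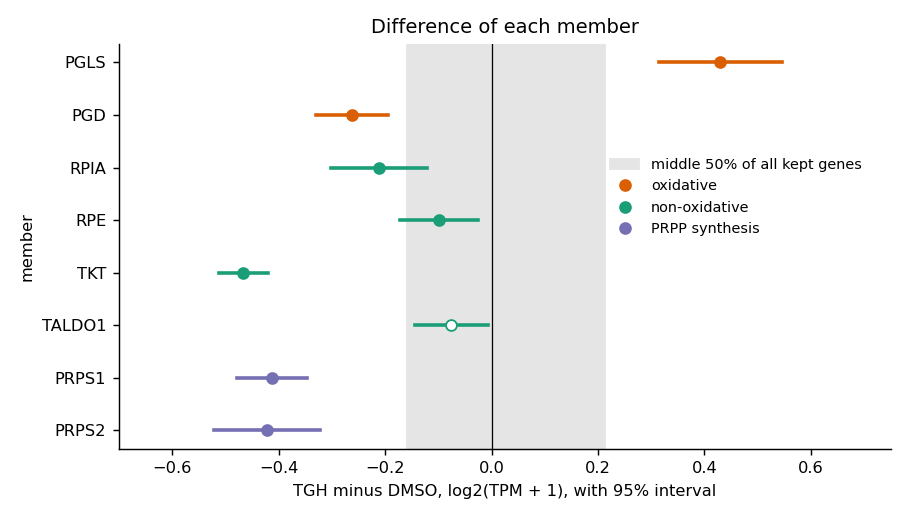
Log2 difference, TGH minus DMSO, of each member with its 95% interval from limma; filled points were called, the open point (TALDO1) was not, and the grey band holds the middle 50% of all kept genes. PGLS lies to the right of the band at 0.43, and TKT, PRPS1 and PRPS2 lie to its left at -0.47, -0.41 and -0.42.

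Set against each other, the 2 branches differed in their totals. The summed TPM of PGLS and PGD was 160.7, 163.7 and 161 in TGH replicates 1 to 3, against 156, 161 and 151 in DMSO replicates 1 to 3. These groups overlapped, with the higher PGLS and the lower PGD added together. The summed TPM of RPIA, RPE, TKT and TALDO1 was 379.9, 387 and 383 in TGH replicates 1 to 3, against 456, 459.6 and 451 in DMSO replicates 1 to 3. Here the groups were far apart. The oxidative share of the TPM of both branches was 29.7% ± 0.056 in TGH and 25.5% ± 0.430 in DMSO (SD, n = 3 each). This share includes PGLS, which rose, and a share without PGLS was not computed. The mean log2 value of the oxidative members minus that of the non-oxidative members was 0.42, 0.42 and 0.40 in TGH replicates 1 to 3, against 0.13, 0.16 and 0.062 in DMSO replicates 1 to 3. Its shift of 0.30 rests on PGLS: with PGD alone as the oxidative member it was -0.049, in the opposite direction. No p was computed for this score. The summed TPM of PRPS1 and PRPS2 was 89.3 ± 3.34 in TGH and 119.8 ± 1.02 in DMSO (SD, n = 3 each).

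**Figure D3:**
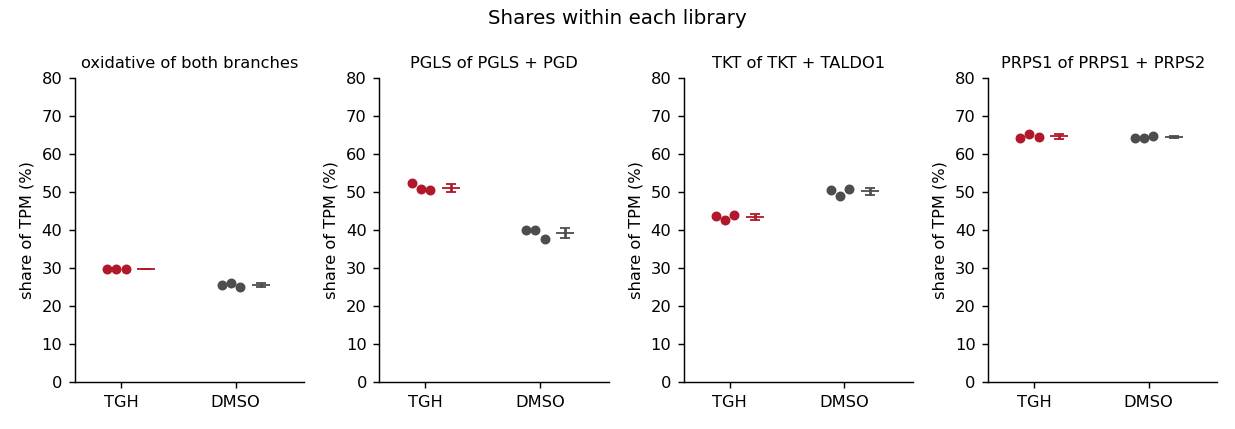
Shares of TPM within each library, in percent, for the oxidative members among both branches, PGLS among the oxidative pair, TKT among TKT and TALDO1, and PRPS1 among both isoforms; dots are libraries and bars the mean ± SD. The PGLS share is 51.2% in TGH and 39.3% in DMSO, the TKT share 43.4% and 50.2%, and the PRPS1 share 64.7% and 64.5%.

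Genes next to the pathway were counted in lists chosen by function, and each count is to be read against the 26.3% lower and 28.9% higher among all kept genes. Of 9 genes for glycolytic steps that share its sugar phosphates, 8 were lower and 0 higher, with a median log2 difference of -0.29. Among the 8, FBP1, at -0.42 (limma adjusted p = 0.000155), encodes a phosphatase of gluconeogenesis, which runs against glycolysis. The list also held GAPDH at -0.37, TPI1 at -0.43 and ALDOA at -0.35 (limma adjusted p = 7.95e-06, 2.35e-05 and 2.04e-05). These abundant genes have processed copies in the genome that can share reads, and against DMSO replicate 3 alone 5 of the 9 were lower. Of 8 kept genes listed as PRPP users, among them relatives of such enzymes, 6 were lower and 1 higher, with a median of -0.24. Only 3 were lower without TGH replicate 3. HPRT1, which salvages purine bases with PRPP, had 52.8 ± 1.32 TPM in TGH and 71.2 ± 2.13 TPM in DMSO (SD, n = 3 each; difference -0.43, limma adjusted p = 7.93e-05). PRTFDC1, its paralog, fell by 0.43 and UPRT, related to uracil phosphoribosyltransferases, by 0.26 (limma adjusted p = 0.000362 and 0.00887). QPRT was under the filter.

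Side routes of sugar phosphates, not all of which handle pentose phosphates, had 4 of 6 genes higher and 1 lower, with a median of 0.17. Without TGH replicate 2 only 2 of the 6 were higher. RBKS, ribokinase, which makes ribose 5-phosphate from free ribose, had 5.40, 4.73 and 4.99 TPM in TGH replicates 1 to 3, against 3.15, 1.99 and 2.39 TPM in DMSO replicates 1 to 3. The groups did not overlap (difference 0.80, SE 0.121, limma adjusted p = 0.0016). PGM1, a phosphoglucomutase, rose by 0.20, while SHPK, which phosphorylates sedoheptulose and so feeds the non-oxidative branch, fell by 0.42 (limma adjusted p = 0.00111 and 0.00164).

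NADPH sources outside the pathway were counted next. Of 9 kept other makers of NADPH and NAD kinases 6 were higher and 1 lower, with a median of 0.18, and ALDH1L1 and ALDH1L2 were under the filter. MTHFD1, the cytosolic folate enzyme, fell by 0.22, while MTHFD2L, a mitochondrial relative, rose by 0.33 and the mitochondrial NAD kinase NADK2, listed under its older symbol NADKD1, rose by 0.24 (limma adjusted p = 0.000466, 0.00263 and 0.00421). Of 10 kept users of NADPH 4 were lower and 3 higher, with a median of -0.13, and over 17 alternatives 4 to 6 were lower and 1 to 3 higher. Under median scaling 6 were lower and 1 higher, and only 1 was higher with no filter and without TGH replicate 2, TGH replicate 3 or DMSO replicate 3. TXNRD1, the cytosolic thioredoxin reductase, fell by 0.36, and NQO1, a quinone reductase, by 0.47 (limma adjusted p = 3.67e-05 and 7.2e-05).

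**Figure D4:**
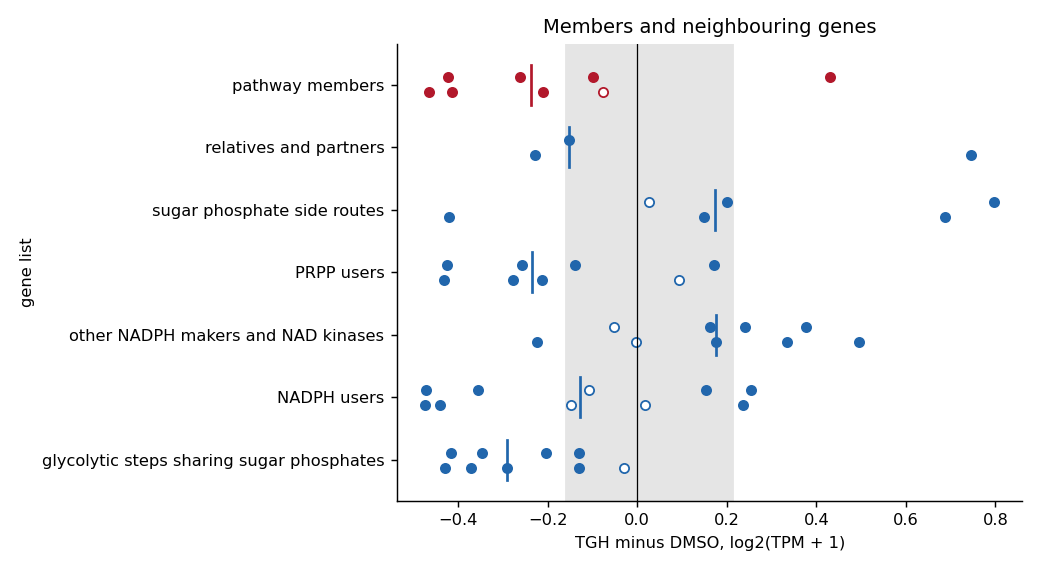
Log2 difference, TGH minus DMSO, of the 8 members (top row) and of the kept genes of 6 functional lists; filled points were called, open points were not, short vertical lines are medians and the grey band holds the middle 50% of all kept genes. The medians of members, PRPP users and glycolytic steps lie at -0.24, -0.24 and -0.29, and those of side routes and other NADPH makers at 0.17 and 0.18.

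For the 3 members with the largest differences, likeness to other kept genes was measured as the root mean square difference of mean-centred log2 values over the 6 libraries, as a description without a test. PGK1 and GLO1 were most like TKT (0.012 each), with differences of -0.46 each. IBTK and C3orf67 were most like PGLS (0.0181 and 0.0228), at 0.41 and 0.40. ATAD2 and AP1S3 were most like PRPS2 (0.0175 and 0.0208), at -0.42 and -0.44, and PRPS1 was the next in that order (0.0243). With 2 groups of libraries, this measure mainly ranks genes by the size of their difference.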

How the data were processed

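RNA of 6 PC-3 libraries (3 TGH, 3 DMSO) was sequenced after ribosomal RNA depletion and a kit that keeps the strand, per the labels' protocols. The authors deposited log2(TPM + 1) values per gene symbol, and the offset was read from the smallest value, exactly 0. The submitters' processing notes name hg19 as the build; aligner, quantifier and annotation: not given in the sources used here. Each library's TPM add up to 502380 to 518870. Depth is unknown. The filter, a mean of 1 TPM or more, kept 12018 genes. TGH and DMSO were compared on the deposited log2 values with limma 3.58.1 in R 4.3.3 (variance trend on expression, two-sided, Benjamini-Hochberg adjustment over all kept genes, call under 0.05). The step was also run on simulated data, with fewer changed genes than were called here and larger changes than those of the members. That run therefore cannot show how sound the members' calls are. Intervals are 95%. Differences on this scale understate the change of low genes. The members, lists and motifs were chosen with earlier results of these data known. Named genes were all members, up to 3 genes per functional list with the smallest p, and the 2 genes most like each of the 3 members with the largest differences; markers and relatives such as TKTL1 are given as values, and some items under these rules are not reported here. Alternatives were pseudocounts of 0.1 and 5, other filters, scalings and variance models, a replicate block, and fits without single libraries. Figures were drawn with matplotlib 3.10.9.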

Additional observations from a re-analysis of the deposited data

How the results depend on the processing

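PGLS, PGD, RPIA, TKT, PRPS1 and PRPS2 were called in the same direction under all 17 alternatives, TKT with -0.50 to -0.42 and PGLS with 0.38 to 0.54. The members called lower numbered 5 to 7 and those called higher 1. Genes called lower among all kept numbered 2557 to 3643, and higher 2578 to 3879. RPE was called in 10 of 17 alternatives. It was not called with the replicate block (-0.10, adjusted p = 0.0731) or with DMSO replicate 3 as the only control (-0.074, adjusted p = 0.198), and leaving out single libraries gave -0.11 to -0.082 (adjusted p from 0.0417 to 0.1). TALDO1, not called at first, was called in 5 of 17: under median scaling (-0.11), rescaled without small RNAs (-0.086), with robust variances (-0.076), with the replicate block (-0.076), and without DMSO replicate 3, within a range of -0.094 to -0.052 over single libraries left out. The cause was not tested. Deviations of same-numbered libraries correlated at 0.0088, 0.054 and 0.228, and those of differently numbered libraries at -0.158 to 0.096. With only 3 libraries per group, these values cannot decide whether the numbers pair them. With the block 6 members were lower and 1 higher.

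The branch balance was 0.35 with DMSO replicate 3 as the only control, and 0.27 to 0.32 with single libraries left out. It was -0.049 without PGLS, which reverses it because PGLS is the oxidative member that rose. From summed TPM, with PGLS included, it was 0.30. The last pair of settings was chosen after seeing the data. PRPS1 minus PRPS2 was -0.0086 at a pseudocount of 5, -0.0070 with DMSO replicate 3 as the only control, and -0.013 to 0.023 with single libraries left out. Depth is unknown, so no limit from counting can be given for low transcripts.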
